A study of Mus musculus with 12 samples.

Results

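Kit, a receptor tyrosine kinase for stem cell factor, was compared within the epithelial cells of the embryonic mouse submandibular gland that lacked the K5-Venus reporter. The Kit+ K5- population was set against the Kit- K5- population, with 3 libraries on each side, so 6 of the 12 libraries of the study enter the comparison. All libraries came from submandibular glands at embryonic day 15 of the strain Tg(KRT5-Venus)1Sgkd, in which a keratin 5 promoter drives the fluorescent protein Venus. The transgene is carried by the Kit+ and the Kit- group alike, and "K5-" means only that Venus was not detected by the sorter. Flow cytometry with antibodies to E-cadherin and Kit took the E-cadherin positive cells apart by Kit and by Venus, per the labels, which also gave 3 libraries each of Kit+ K5+ and of Kit- K5+ cells. How many embryos went into 1 library is not given here, and p-values measure the spread between these libraries, which may in part be technical. Total RNA was sequenced as single reads of 50 nt and counted per gene, and 17030 of 43280 gene symbols held enough counts to be tested.

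At this stage the gland is a branched epithelial tree in a bed of mesenchyme. The distal swellings of the tree, the end buds, hold the progenitors of the acini, which will secrete saliva, and the stalks behind them become ducts. End buds grow under fibroblast growth factors from the mesenchyme, which act through Fgfr2 and induce the transcription factors Etv4 and Etv5, and Kit signalling maintains their progenitors. Kit is also the defining receptor of mast cells, whose granules hold proteases and histamine, so a Kit+ gate can take up both kinds of cell.

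The 6 libraries held 7629951 to 13724364 counts. The mitochondrial share of counts was 17.2% ± 8.81 for Kit+ K5- and 9.07% ± 3.33 for Kit- K5- (SD, n = 3 libraries each). Log2 CPM, counts scaled to a common library size, correlated at 0.907 to 0.948 between Kit+ K5- libraries and at 0.942 to 0.956 between Kit- K5- libraries. Replicate 1 of Kit+ K5- stood apart from the other two of its population. It held a count for 29126 genes, against 22236 and 22935 in replicates 2 and 3, and its mast cell transcripts were far higher, as described below. The Kit+ K5- libraries held 771 to 1317 CPM of mesenchyme transcripts in sum and the Kit- K5- libraries 16814 to 27786 CPM, although both were sorted on E-cadherin. The nearest library to Kit+ K5- replicate 1, at r = 0.925, was Kit+ K5+ replicate 1. Each population has its replicates numbered in library order, and libraries with the same replicate number varied together, so they are treated as runs where a paired value is given. All CPM below are after TMM scaling, in the order of replicates 1, 2 and 3, and differences are log2 values of Kit+ K5- over Kit- K5- with their standard errors.

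The sorting markers were examined first. Kit (chromosome 5, 75574916 to 75656722) had 445, 299.5 and 283 CPM in Kit+ K5- libraries, against 10.03, 20.4 and 13.7 CPM in Kit- K5- libraries. Every Kit+ K5- library lay above every Kit- K5- library, by 23.3-fold in the fit, a log2 difference of 4.54 ± 0.32 (adjusted p = 1.32e-06). Krt5 (chromosome 15, 101707070 to 101712898), the endogenous counterpart of the reporter, had 0.317, 4.63 and 2.33 CPM in Kit+ K5- cells and 0.853, 4.597 and 7.15 CPM in Kit- K5- cells. Its values overlapped between the populations, with a log2 difference of -0.77 ± 0.85 (adjusted p = 0.566). Cdh1 (chromosome 8, 106603351 to 106670246), which encodes E-cadherin, had 909, 702 and 503 CPM in the Kit+ K5- replicates, compared with 172, 149 and 198 CPM in the Kit- K5- replicates. Both populations were sorted as E-cadherin positive, yet Cdh1 transcripts were higher in Kit+ K5- cells by 2.02 ± 0.28 (adjusted p = 0.000222), a difference that turned to -0.13 on a scale set by general epithelial genes, as described below. Of the markers chosen for this comparison, Elf5 and Etv4, which mark end bud epithelium, were higher in Kit+ K5- cells with TMM scaling and neither was called when scaled to general epithelial genes, and Dcn (chromosome 10, 97479609 to 97518143), a proteoglycan gene that marks mesenchyme, was lower. Their values are given below.

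Across all genes, 1729 were higher in Kit+ K5- cells and 1895 were lower at an adjusted p under 0.05, in all 3624 of 17030 (21.3%). Higher genes were 10.2% and lower genes 11.1% of those tested, and these are the background shares for the counts that follow. At least 2-fold were 1247 of the higher and 1619 of the lower genes. The median log2 difference of all genes tested was 0.0479. Leaving out 1 library gave fewer calls, namely 2123 without Kit+ K5- replicate 2, 2197 without Kit- K5- replicate 1 and 2398 genes without Kit- K5- replicate 2. With the runs as a block, 4977 genes were called (29.2%).

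Transcripts common to all epithelial cells differed as well, and the scaling of the libraries bears on the directions that follow. Of 20 genes of general epithelium, such as the adhesion molecule Epcam, the splicing regulator Esrp1 and the protease St14, 19 were higher in Kit+ K5- cells and all 20 had a positive log2 difference, with a median of 2.22. Epcam had 446, 406 and 382 CPM in Kit+ K5- libraries, against 64.8, 87.4 and 119 CPM in Kit- K5- libraries. The difference was 2.19 ± 0.24 (adjusted p = 3.77e-05). Esrp1 differed by 2.23 ± 0.22 (adjusted p = 1.32e-05) and St14 by 2.57 ± 0.27 (adjusted p = 2.55e-05). The summed level of these genes was 1944 to 3034 CPM in Kit+ K5- libraries and 546 to 669 CPM in Kit- K5- libraries. In bulk samples, fewer cells of a type and less RNA per cell cannot be told apart. When the libraries were instead scaled to these 20 genes, which sets their median near 0 by construction, the median of all genes was -2.03, and 12629 genes were called (74.2%), 38 higher (0.223%) and 12591 lower (73.9%). This second scale, called the epithelial scale below, shows which genes exceeded the difference of general epithelial genes.

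The end bud genes were mostly higher in Kit+ K5- cells on the TMM scale, with a median below that of general epithelial genes. Of 20 genes, 11 were higher and 1 was lower, against background shares of 10.2% and 11.1%. Their median log2 difference was 1.66, against 2.22 for general epithelial genes. On the epithelial scale 1 was higher and 3 were lower, against 0.223% and 73.9% of all genes tested. Their median there was -0.43, against -2.03 for all genes. Without Kit+ K5- replicate 2, 6 were higher on the TMM scale. Their summed level was 1277 to 2185 CPM in Kit+ K5- and 363 to 906 CPM in Kit- K5- libraries, so the 2 populations did not overlap.

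Among the transcription factors of the end bud, Elf5 (chromosome 2, 103411688 to 103450989), an ETS factor that drives secretory fate in the mouse mammary gland, had 117, 50.98 and 35.5 CPM in Kit+ K5- cells and 1.71, 8.43 and 13.4 CPM in Kit- K5- cells. It was higher by 3.13 ± 0.65 (adjusted p = 0.00392), and Kit+ K5- replicate 1 had the highest value while Kit- K5- replicate 1 had the lowest. The difference was 2.49 without Kit+ K5- replicate 1 and 3.74 when Kit- K5- replicate 3 was left out. Etv4 (chromosome 11, 101769742 to 101785371) had 19.2, 50.8 and 54.8 CPM in the Kit+ K5- replicates, compared with 7.93, 13.4 and 10.9 CPM in the Kit- K5- replicates. Here replicate 1 was the lowest library of both populations, and the difference was 1.95 ± 0.36 (adjusted p = 0.00192). Etv5 had 121, 498 and 462 CPM in Kit+ K5- libraries, against 69.4, 116 and 108 CPM in Kit- K5- libraries, a difference of 1.88 ± 0.49 (adjusted p = 0.0149) that missed the threshold without Kit- K5- replicate 1 or Kit+ K5- replicate 2, with a largest adjusted p of 0.0683. Etv4 stood at -0.040 and Etv5 at -0.10 on the epithelial scale, both with their sign turned, and Elf5 at 0.87 (adjusted p = 0.18).

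Myb, a transcription factor of progenitor cells, was the end bud gene whose level stood out on both scales. It had 130.3, 123 and 99.9 CPM in Kit+ K5- cells and 13.2, 14.5 and 15.1 CPM in Kit- K5- cells. The 3 libraries of each population lay close together and the populations far apart, by 8.27-fold, a log2 difference of 3.05 ± 0.28 (adjusted p = 6.64e-06). Myb was also the single end bud gene called higher on the epithelial scale, at 0.93 (adjusted p = 0.0128). The homeobox factor Six4 was higher by 2.29 ± 0.32 (adjusted p = 0.000275) on the TMM scale and stood at 0.28 on the epithelial scale.

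Sox9 and Sox10 are SOX factors that acinar progenitors of this gland require. Sox9 had 168, 227 and 183 CPM in the Kit+ K5- replicates, compared with 51.5, 75.8 and 98.3 CPM in the Kit- K5- replicates, and was higher by 1.36 ± 0.27 (adjusted p = 0.00301). Sox10 had 88.3, 179 and 173 CPM in Kit+ K5- libraries, against 15.1, 73.2 and 62.4 CPM in Kit- K5- libraries, a difference of 1.55 ± 0.55 (adjusted p = 0.0601) that passed the threshold with the runs as a block (adjusted p = 0.0246). Both turned below 0 on the epithelial scale, to -0.73 for Sox9 and -0.50 for Sox10. The same held for Foxc1 and Barx2, which missed the threshold on the TMM scale (adjusted p = 0.0672 and 0.0811) and passed it with the block (adjusted p = 0.00612 and 0.0295), and stood at -0.56 and -0.47 on the epithelial scale. Rbpms2, an RNA-binding protein gene, was the only end bud gene called lower on the TMM scale. It had 1.902, 5.16 and 3.495 CPM in Kit+ K5- cells and 10.7, 11.03 and 15.7 CPM in Kit- K5- cells, and was lower, with a difference of -1.82 ± 0.45 (adjusted p = 0.0107, and 0.0521 without Kit- K5- replicate 3). Nkx2-3 and Gfra3 were scarce in all 6 libraries, and their differences of 1.95 ± 1.10 (adjusted p = 0.233) and -0.66 ± 1.33 (adjusted p = 0.772) did not pass.

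**Figure D1:**
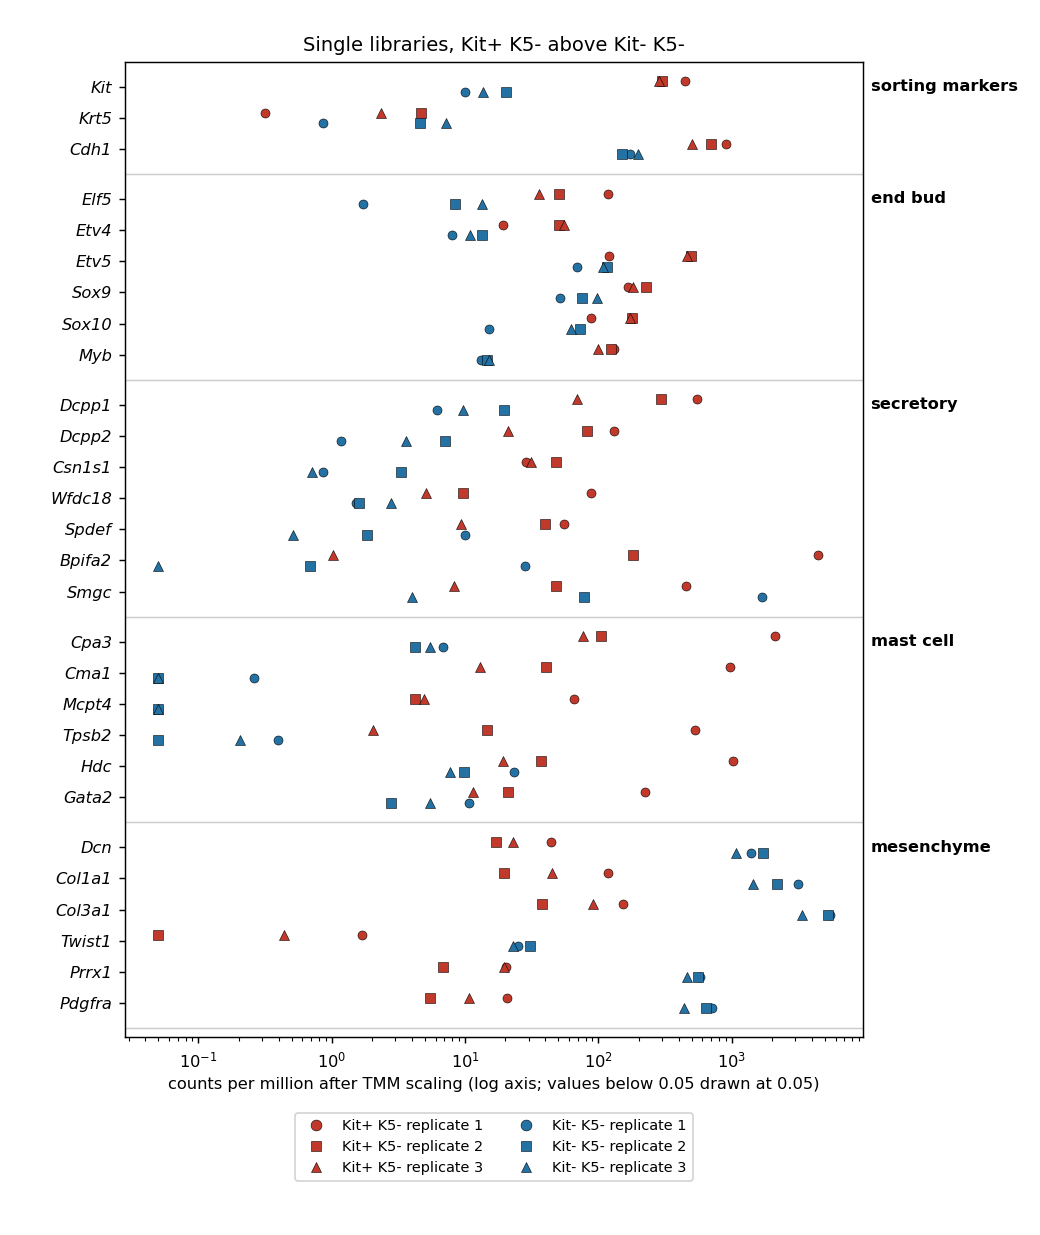
Level of 28 genes in each of the 6 libraries, in CPM on a log axis, with Kit+ K5- libraries (red) above Kit- K5- libraries (blue) and the replicates as circles, squares and triangles. Kit and Myb separate the populations with little spread, the secretory and mast cell genes are spread widely between replicates, and the mesenchyme genes lie far higher in the Kit- K5- libraries.

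The FGF pathway was followed from ligand to response. Fgf1, a ligand made by the epithelium, had 45.2, 71.5 and 61.3 CPM in the Kit+ K5- replicates, compared with 15.02, 40.99 and 29.3 CPM in the Kit- K5- replicates. It was higher by 1.06 ± 0.32 (adjusted p = 0.0313), a call that held in 2 of 6 fits without 1 library (lost without Kit- K5- replicate 1 or 3 and without Kit+ K5- replicate 2 or 3, largest adjusted p = 0.129), and it turned to -1.02 on the epithelial scale. Fgfr2, the receptor, had 87.8, 151 and 239.6 CPM in Kit+ K5- libraries, against 29.6, 76.5 and 162 CPM in Kit- K5- libraries. Those values overlapped, with a difference of 0.84 ± 0.50 (adjusted p = 0.267) on the TMM scale, 0.024 as the adjusted p with the block, and -1.11 on the epithelial scale. Hs3st3a1 and Hs3st3b1 encode enzymes that add the heparan sulfate groups bound by FGF10. Hs3st3b1 had 71.9, 185 and 186 CPM in Kit+ K5- cells and 34.9, 58.8 and 64.4 CPM in Kit- K5- cells, a difference of 1.49 ± 0.47 (adjusted p = 0.038) that held in 1 of 6 fits without 1 library, namely without Kit+ K5- replicate 1, with a largest adjusted p of 0.145 in the others. Hs3st3a1 had a difference of 2.01 ± 0.69 (adjusted p = 0.0538), and the block gave an adjusted p of 0.037. Hs3st3b1 stood at -0.51 on the epithelial scale and Hs3st3a1 at 0.024. The mesenchymal ligands ran the other way. Fgf10 had 3.91, 1.26 and 3.93 CPM in the Kit+ K5- replicates, compared with 154, 180.3 and 119.9 CPM in the Kit- K5- replicates, and Fgf7 had 4.02, 1.05 and 2.33 CPM in Kit+ K5- libraries, against 72.3, 60.1 and 48.5 CPM in Kit- K5- libraries. Neither gene's values overlapped, and they were lower in Kit+ K5- cells, with differences of -5.65 ± 0.54 (adjusted p = 1.12e-05) and -4.60 ± 0.52 (adjusted p = 4.18e-05).

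Of 16 genes of the FGF and ERK response, 5 were higher and 1 lower in Kit+ K5- cells, with a median log2 difference of 0.49. Ccnd1, a cyclin that drives entry into the cell cycle, had 924, 885 and 666 CPM in Kit+ K5- cells and 105, 227 and 181 CPM in Kit- K5- cells. It led the higher genes at 2.27 ± 0.37 (adjusted p = 0.000818). Myc differed by 1.47 ± 0.29 (adjusted p = 0.00327). The ERK phosphatase genes Dusp6 and Dusp4, which respond to ERK, were higher by 1.34 ± 0.21 (adjusted p = 0.000611) and 1.49 ± 0.34 (adjusted p = 0.00709), and Fgfbp1, which encodes a carrier of FGF proteins, by 1.36 ± 0.31 (adjusted p = 0.00747). On the epithelial scale Ccnd1 stood at 0.12, whereas Myc, Dusp6, Dusp4 and Fgfbp1 turned to between -0.69 and -0.55. There 10 of the 16 were lower, against 73.9% of all genes tested, with a median of -1.52 against -2.03 for all genes. Spry4, an inhibitor that ERK induces, was the lower gene on the TMM scale, where DESeq2 and the block gave 2 lower. It had 33.2, 42.02 and 48.2 CPM in the Kit+ K5- replicates, compared with 205, 221 and 105 CPM in the Kit- K5- replicates, a difference of -2.11 ± 0.29 (adjusted p = 0.000215), and was among the lower genes on the epithelial scale too, at -4.14. Chrm1, a muscarinic receptor for the acetylcholine of parasympathetic nerves, had 18.8, 18.1 and 12.2 CPM in Kit+ K5- libraries, against 8.59, 3.45 and 2.86 CPM in Kit- K5- libraries, a difference of 1.71 ± 0.53 (adjusted p = 0.0335) that held in 2 of 6 fits without 1 library (lost without Kit+ K5- replicate 1 or 2 and without Kit- K5- replicate 2 or 3, largest adjusted p = 0.129, and 2.36 without Kit- K5- replicate 1), and Bmp7, a ligand of the BMP family, had a difference of 0.41 ± 0.34 (adjusted p = 0.427). Both turned on the epithelial scale, to -0.40 and -1.60.

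Some secretory genes separated the populations without overlap, and others were higher in the Kit+ K5- library of each run while their values overlapped between the populations. Of 25 genes of the acinar secretory list 22 were tested, and 9 of these were higher and none lower in Kit+ K5- cells, against background shares of 10.2% and 11.1%. The count of 0 lower genes was also 0 with DESeq2 and voom, whereas with no filter on low counts 2 of 25 were lower, and 12 of the 22 had an unadjusted p under 0.05 in either direction. The median log2 difference was 2.51. With the block 15 were higher and 1 was lower. On the epithelial scale 4 were higher and 4 lower, against 0.223% and 73.9% of all genes tested. Smr2, Car6 and Tff2 were too low to test.

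Among the genes without overlap, Dcpp1 had 548, 296 and 68.5 CPM in Kit+ K5- cells and 6.099, 19.6 and 9.597 CPM in Kit- K5- cells. It belongs to a cluster of near-identical genes for demilune cell and parotid proteins, which salivary glands of the mouse secrete. Dcpp1 was higher by 25.8-fold, a log2 difference of 4.69 ± 0.76 (adjusted p = 0.000744). Dcpp2 had 130.2, 82.05 and 20.8 CPM in the Kit+ K5- replicates, compared with 1.18, 7.05 and 3.57 CPM in the Kit- K5- replicates, and Dcpp3 had 73.6, 47.4 and 14.3 CPM in Kit+ K5- libraries, against 0.721, 3.98 and 2.04 CPM in Kit- K5- libraries. Their differences were 4.31 ± 0.74 (adjusted p = 0.0011) and 4.33 ± 0.75 (adjusted p = 0.00116). With Kit+ K5- replicate 1 left out, the differences of Dcpp1 and Dcpp2 were 3.96 and 3.72, and without Kit- K5- replicate 2 those of Dcpp2 and Dcpp3 were 5.06 and 5.06. Reads of 50 nt can be shared between such copies, so the 3 values are uncertain as values of single genes. All 3 were also higher on the epithelial scale, at 2.34, 1.97 and 2.01.

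The likeness of these genes extends to the sequence in front of them, which is shown because these 3 genes moved together. These are the 250 bases before the RefSeq gene start on GRCm38.p6, written 5′ to 3′ on the gene's strand, at chr17:23880626-23880875 for Dcpp1, chr17:23898472-23898721 for Dcpp2 and chr17:23917208-23917457 for Dcpp3, all on the plus strand. Capitals mark the letters AGATAA, the site read by GATA factors.
Dcpp1: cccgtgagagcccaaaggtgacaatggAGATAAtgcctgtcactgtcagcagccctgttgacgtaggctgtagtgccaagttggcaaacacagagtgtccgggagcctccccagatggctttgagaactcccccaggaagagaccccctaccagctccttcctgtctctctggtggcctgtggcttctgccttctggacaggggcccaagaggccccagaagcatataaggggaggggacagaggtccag
Dcpp2: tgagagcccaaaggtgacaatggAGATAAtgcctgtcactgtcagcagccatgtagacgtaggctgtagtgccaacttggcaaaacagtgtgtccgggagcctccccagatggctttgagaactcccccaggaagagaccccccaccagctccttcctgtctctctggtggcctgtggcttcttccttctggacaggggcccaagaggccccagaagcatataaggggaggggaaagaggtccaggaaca
Dcpp3: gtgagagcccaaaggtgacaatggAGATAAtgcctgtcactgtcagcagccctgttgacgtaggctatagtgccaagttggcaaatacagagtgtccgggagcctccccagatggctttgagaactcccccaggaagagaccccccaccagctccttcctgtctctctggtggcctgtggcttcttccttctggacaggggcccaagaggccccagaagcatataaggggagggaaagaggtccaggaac
Aligned in pairs, these stretches were 97.14% identical between Dcpp1 and Dcpp2, 97.97% between Dcpp1 and Dcpp3 and 97.98% between Dcpp2 and Dcpp3. The capitals begin at positions -223, -227 and -226 from the gene start.

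Csn1s1, which encodes a casein, had 28.9, 48.03 and 31.02 CPM in Kit+ K5- cells and 0.853, 3.29 and 0.715 CPM in Kit- K5- cells. The Kit+ K5- libraries varied little, and the difference of 4.45 ± 0.60 (adjusted p = 0.000187), which was 5.48 without Kit- K5- replicate 2, came to 2.33 on the epithelial scale (adjusted p = 0.00191). Of the genes of the list that serve fluid secretion, Ano1, Slc12a2 and Chrm3 were higher on the TMM scale, whereas Aqp5, described below, missed the threshold (adjusted p = 0.197). The chloride channel gene Ano1 had 162, 69.8 and 46.3 CPM in the Kit+ K5- replicates, compared with 16.5, 20.5 and 17.97 CPM in the Kit- K5- replicates, a difference of 2.34 ± 0.38 (adjusted p = 0.000723) that was 1.67 without Kit+ K5- replicate 1. Slc12a2, the cotransporter that loads acinar cells with chloride, differed by 1.37 ± 0.23 (adjusted p = 0.00113), and Chrm3, the main muscarinic receptor of saliva secretion, by 2.69 ± 0.59 (adjusted p = 0.00555). Slc12a2 turned to -0.66 on the epithelial scale, and Ano1 and Chrm3 stood at 0.085 and 0.63.

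Of the genes that overlapped, Bpifa2, Lpo, Aqp5 and Bhlha15 were highest in replicate 1 of both populations. Bpifa2, the gene of parotid secretory protein, had 4432, 182 and 1.02 CPM in Kit+ K5- libraries, against 28.1, 0.6895 and 0 CPM in Kit- K5- libraries. Each Kit+ K5- library lay above the Kit- K5- library of its run, but Kit+ K5- replicate 3 lay below Kit- K5- replicate 1, and the difference of 7.29 ± 2.73 (adjusted p = 0.0731) passed the threshold with the block (adjusted p = 1.07e-05). It was 3.23 without Kit+ K5- replicate 1 and 11.90 when Kit- K5- replicate 1 was left out. Lpo, which encodes lactoperoxidase, had 293, 42.4 and 6.26 CPM in Kit+ K5- cells and 24.7, 2.83 and 0.102 CPM in Kit- K5- cells. Aqp5, the water channel of acinar cells, had 55.6, 10.8 and 4.08 CPM in the Kit+ K5- replicates, compared with 8.46, 2.07 and 0 CPM in the Kit- K5- replicates. Both follow the same order of replicates, with differences of 3.61 ± 1.29 (adjusted p = 0.0624) and 2.71 ± 1.41 (adjusted p = 0.197) and adjusted p-values of 0.0017 and 0.00143 with the block. For Lpo the difference was 1.39 without Kit+ K5- replicate 1 and 6.17 when Kit- K5- replicate 1 was left out, and for Aqp5 it was 1.07 and 4.41 in the same fits. Bhlha15, the transcription factor Mist1 of secretory cells, had 75.5, 27.6 and 8.16 CPM in Kit+ K5- libraries, against 24.001, 7.36 and 1.94 CPM in Kit- K5- libraries, a difference of 1.73 ± 0.99 (adjusted p = 0.242) with an adjusted p of 0.0014 with the block. It was 0.68 without Kit+ K5- replicate 1 and 2.96 when Kit- K5- replicate 1 was left out, and it turned to -0.56 on the epithelial scale.

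Spdef, an ETS factor of mucous cells, had 55.4, 39.6 and 9.32 CPM in Kit+ K5- cells and 10.03, 1.84 and 0.5105 CPM in Kit- K5- cells. Its difference of 3.04 ± 1.03 (adjusted p = 0.049) was lost without Kit+ K5- replicate 1 or 2 and without Kit- K5- replicate 2 or 3 (largest adjusted p = 0.159), was 4.82 without Kit- K5- replicate 1, and had an adjusted p of 4.42e-05 with the block. Wfdc18, of the whey acidic protein family, had 88.6, 9.58 and 5.098 CPM in the Kit+ K5- replicates, compared with 1.51, 1.61 and 2.76 CPM in the Kit- K5- replicates, so a single library carried most of its level. The difference of 4.15 ± 1.14 (adjusted p = 0.0191) was 1.93 (adjusted p = 0.146) without Kit+ K5- replicate 1, and it was also lost without Kit- K5- replicate 1 or 2.

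Not every secretory gene was higher in Kit+ K5- cells. Smgc, which encodes submandibular gland protein C, had 452, 48.03 and 8.302 CPM in Kit+ K5- libraries, against 1673, 77.6 and 3.98 CPM in Kit- K5- libraries. Its difference of -1.79 ± 1.88 (adjusted p = 0.547) turned to 2.03 without Kit- K5- replicate 1. Muc19, a mucin gene, had 204, 39.9 and 11.4 CPM in Kit+ K5- cells and 179.9, 21.5 and 3.06 CPM in Kit- K5- cells, a difference of 0.32 ± 1.32 (adjusted p = 0.895) with an adjusted p of 0.0432 with the block. Muc19 turned below 0 on the epithelial scale, at -2.002, and ranged over -1.41 to 2.77 in the fits without 1 library. Creb3l1, a transcription factor of the secretory pathway, had 258, 41.6 and 27.4 CPM in the Kit+ K5- replicates, compared with 288, 261 and 187 CPM in the Kit- K5- replicates. It was lower in Kit+ K5- cells in each run, with a difference of -1.17 ± 0.94 (adjusted p = 0.418) and an adjusted p of 0.0225 with the block. The other tested members, Prol1, Pip, Agr2, Smr3a, Amy1 and Csn3, had differences between -0.98 and 4.95. None passed the threshold without the block, and Prol1 did with it (adjusted p = 0.012).

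**Figure D2:**
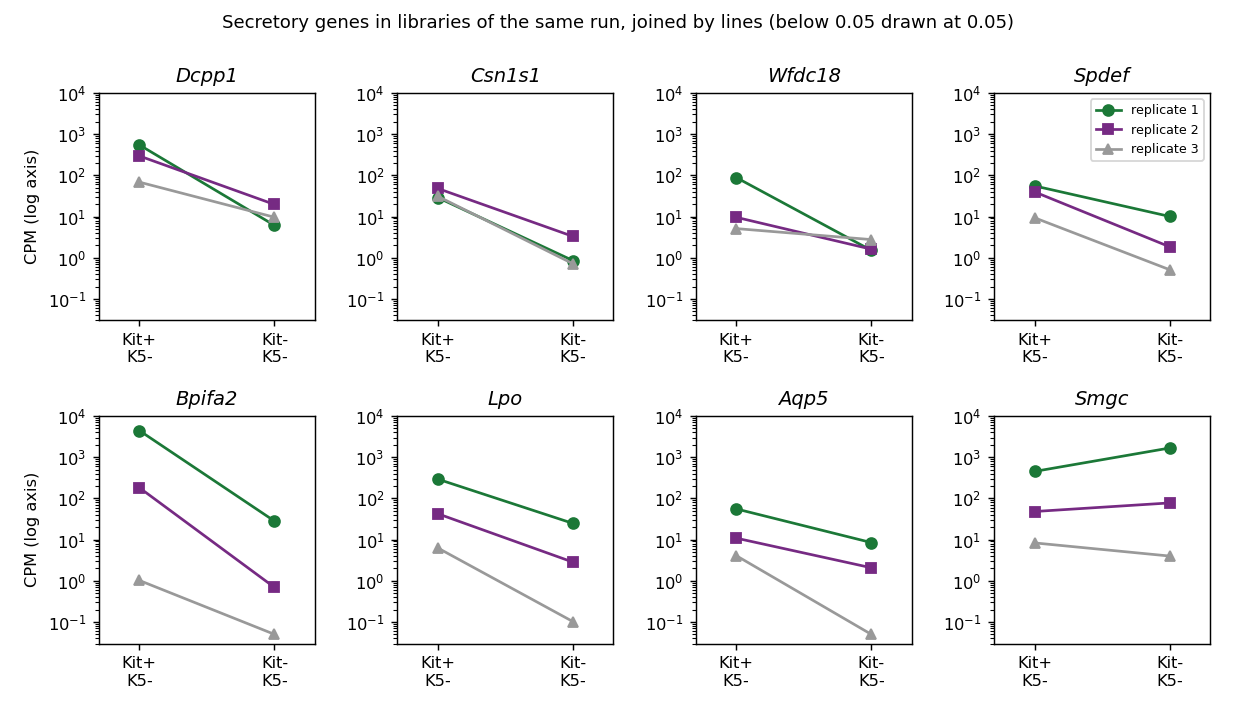
Level of 8 secretory genes in CPM on a log axis, with the Kit+ K5- library of each run joined to the Kit- K5- library of the same run. Dcpp1 and Csn1s1 separate the populations, while Bpifa2, Lpo and Aqp5 keep the order of the runs within both, and Smgc is highest in Kit- K5- replicate 1 at 1673 CPM.

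Transcripts of the endoplasmic reticulum and its folding enzymes, which secretory cells need in quantity, were called about as often as all genes. Of 28 genes 4 were higher and 4 lower in Kit+ K5- cells, near the background shares of 10.2% and 11.1%, with a median log2 difference of 0.22. Hyou1, a chaperone gene, had 220.2, 329 and 309.9 CPM in Kit+ K5- libraries, against 128, 105 and 117 CPM in Kit- K5- libraries. It was 2.45-fold higher on the TMM scale (adjusted p = 0.000396), and turned to -0.74 on the epithelial scale. Sec24d and Kdelr3, which serve vesicle coats and the retrieval of proteins to the endoplasmic reticulum, were lower, with differences of -1.38 ± 0.28 (adjusted p = 0.00327) and -1.81 ± 0.36 (adjusted p = 0.00341). Without Kit+ K5- replicate 2 the counts were 1 higher and 2 lower, and without Kit- K5- replicate 2 or 3 the higher count was 2.

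Mast cell transcripts held 5 of the 12 largest differences in favour of Kit+ K5- cells, and most of their level was in a single library. Of 18 genes 13 were tested, and 10 of these were higher and none lower on the TMM scale, against a background of 10.2% higher and 11.1% lower. The count of 0 lower genes was 0 with DESeq2 and with voom as well, and 11 of the 13 had an unadjusted p under 0.05 in either direction. Among these 6 libraries Mcpt4 and Mcpt2 had counts in Kit+ K5- libraries alone. Cma1, Tpsb2 and Tpsab1 had at most 0.393 CPM in a Kit- K5- library. Of these 6 libraries only those of Kit+ K5- could carry such genes past the low-count filter. They could hardly come out lower, so the list counts are in part fixed in advance. The median log2 difference was 4.70, also with the genes at 0 set to their bound. On the epithelial scale 7 were higher and 1 lower, against 0.223% and 73.9% of all genes tested. The summed level of the 18 genes was 5869, 300.5 and 219 CPM in Kit+ K5- replicates 1, 2 and 3, against 118, 60.0 and 70.2 CPM in Kit- K5- replicates. Without Kit+ K5- replicate 1, 6 were higher, as also without Kit- K5- replicate 2 or 3.

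The granule proteases were nearly confined to Kit+ K5- libraries among these 6. Cpa3, which encodes mast cell carboxypeptidase, had 2114, 104 and 76.5 CPM in Kit+ K5- cells and 6.82, 4.21 and 5.41 CPM in Kit- K5- cells. It was higher by 7.12 ± 1.55 (adjusted p = 0.0054), and by 4.04 without Kit+ K5- replicate 1. Cma1, the mast cell chymase, had 977, 40.4 and 12.96 CPM in the Kit+ K5- replicates, compared with 0.262, 0 and 0 CPM in the Kit- K5- replicates, and the tryptase genes Tpsb2 and Tpsab1 had 534, 14.5 and 2.04 CPM in Kit+ K5- libraries, against 0.393, 0 and 0.204 CPM in Kit- K5- libraries for Tpsb2, and 399.9, 14.7 and 3.35 CPM in Kit+ K5- cells and 0.262, 0.0766 and 0 CPM in Kit- K5- cells for Tpsab1. All 3 were higher, by 11.53 ± 1.96 (adjusted p = 0.00109), 9.70 ± 1.96 (adjusted p = 0.00347) and 9.94 ± 1.99 (adjusted p = 0.00448), fitted values that rest on few Kit- K5- counts and depend on the prior count. When Kit+ K5- replicate 1 was left out, the differences were 7.88 for Cma1, 5.27 for Tpsb2 and 6.06 for Tpsab1. Leaving out Kit- K5- replicate 1 gave 14.57, 10.78 and 11.22, and Tpsb2 was 9.11 without Kit- K5- replicate 2. Mcpt4 had 65.6, 4.21 and 4.95 CPM and Mcpt2 had 5.28, 3.26 and 4.22 CPM in Kit+ K5- libraries, against 0 counts in all 3 Kit- K5- libraries. With a floor of 3 counts over the 3 Kit- K5- libraries, which is 0.0787 CPM and covers counting error only, Mcpt4 was at least 342-fold and Mcpt2 at least 54.1-fold higher in Kit+ K5- cells. These limits, taken without Kit+ K5- replicate 1, were 57.4-fold for Mcpt4 and 46.6-fold for Mcpt2. Mcpt2 differed from the others in that its 3 Kit+ K5- libraries were close together. These proteases belong to gene families in which similar copies can share reads.

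Genes for the other functions of mast cells gave smaller differences. Hdc, the enzyme that makes histamine, had 1014, 36.9 and 19.1 CPM in the Kit+ K5- replicates, compared with 23.3, 9.81 and 7.76 CPM in the Kit- K5- replicates. Its values overlapped, and the difference of 4.70 ± 1.22 (adjusted p = 0.0146) was 1.04 (adjusted p = 0.335) without Kit+ K5- replicate 1, was also lost without Kit- K5- replicate 2 or 3, and was 5.32 without Kit- K5- replicate 1. Gata2, a transcription factor of mast cell precursors, had 224, 20.96 and 11.4 CPM in Kit+ K5- libraries, against 10.6, 2.76 and 5.41 CPM in Kit- K5- libraries, a difference of 3.76 ± 0.98 (adjusted p = 0.015), which was 1.37 (adjusted p = 0.281) without Kit+ K5- replicate 1, was also lost without Kit- K5- replicate 2 or 3, and was 4.38 without Kit- K5- replicate 1. Il1rl1, the receptor of interleukin 33, differed by 3.48 ± 1.09 (adjusted p = 0.036), and by 0.69 (adjusted p = 0.658) without Kit+ K5- replicate 1. Slc18a2, the transporter that loads histamine into granules, differed by 1.45 ± 0.44 (adjusted p = 0.0301), and by 0.82 (adjusted p = 0.167) without the same library. Both were also lost without any 1 of the Kit- K5- libraries, and Slc18a2 turned to -0.72 on the epithelial scale.

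The 3 tested genes that did not pass were Srgn, Ms4a2 and Hpgds. Srgn, a granule proteoglycan gene of many blood cells, had 219, 18.6 and 24.2 CPM in Kit+ K5- cells and 30.1, 9.19 and 13.99 CPM in Kit- K5- cells, a difference of 2.29 ± 0.81 (adjusted p = 0.059) with an adjusted p of 0.00497 with the block. Ms4a2, the beta chain of the receptor for immunoglobulin E, had 29.9, 3.16 and 0.728 CPM in the Kit+ K5- replicates, compared with 4.98, 1.84 and 2.86 CPM in the Kit- K5- replicates, and Hpgds, which makes prostaglandin D, had 16.2, 7.58 and 11.9 CPM in Kit+ K5- libraries, against 19.1, 10.3 and 8.07 CPM in Kit- K5- libraries. Their differences were 1.80 ± 1.10 (adjusted p = 0.275) and -0.074 ± 0.60 (adjusted p = 0.949). Fcer1a, Gata1, Mrgprb1, Mrgprb2 and Rgs13 were too low to test. Mrgprb1, Mrgprb2 and Rgs13 had nearly all their counts in Kit+ K5- replicate 1, with 11.2, 0 and 0 CPM in Kit+ K5- libraries for Mrgprb1, 7.93, 0.421 and 0 CPM for Mrgprb2 and 8.56, 0 and 0 CPM for Rgs13.

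The promoter of Cpa3 is shown because its gene carried the highest level of the list. It lies at chr3:20242182-20242431 on the minus strand of GRCm38.p6, from RefSeq, with the letters AGATAA in capitals at position -46.
Cpa3: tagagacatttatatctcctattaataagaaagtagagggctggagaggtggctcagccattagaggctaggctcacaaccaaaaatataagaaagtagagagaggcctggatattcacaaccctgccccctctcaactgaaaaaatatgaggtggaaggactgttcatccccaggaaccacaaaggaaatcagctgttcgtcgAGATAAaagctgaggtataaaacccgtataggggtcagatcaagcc
In windows of 250 bases before to 50 after the gene start, AGATAA on either strand was found in 6 of the 15 mast cell genes with a RefSeq window and in 6 of 20 acinar secretory genes, against 12.699% of 27025 genes in all and 8.233% of 11515 genes tested. The mast cell genes were Cpa3, Fcer1a, Il1rl1, Ms4a2, Rgs13 and Slc18a2, and the secretory genes Dcpp1, Dcpp2, Dcpp3, Prol1, Smr2 and Smr3a. Because the Dcpp windows are near copies, they are not separate observations. AGATAA was in 6.811% of genes higher and 6.965% of genes lower in Kit+ K5- cells. Among the other lists it was in 4 of 11 retinoic acid genes and 2 of 8 erythroid genes, so a high share was not particular to the mast cell and secretory lists. The other motifs searched on both strands were CCGGAA of ETS factors, AACCGGTT and the looser AACNGGTT of grainyhead factors, CANNTG of E-box factors, ACAAAG of SOX factors and TGACGTGG of Xbp1. A window was at hand for 10 of 20 end bud genes. CCGGAA was in 3 of these, namely Foxc1, Rbpms2 and Six4, and in 27.833% of genes tested, and in 32.508% of genes higher and 18.695% of genes lower in Kit+ K5- cells. CANNTG was in 8 of 10 end bud genes and ACAAAG in 2 of 10, against 68.693% and 17.125% of genes tested. AACCGGTT, AACNGGTT and TGACGTGG were in 0.278%, 2.275% and 1.068% of genes tested and in no window of the end bud, acinar secretory or mast cell genes, which says only that these letters are not in these windows. The looser grainyhead letters include the stricter ones.

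Mesenchyme transcripts were lower in Kit+ K5- cells than in their Kit- K5- counterparts almost throughout. Of 30 genes 27 were tested and 25 were lower, against a background of 11.1%, and all 27 had a negative log2 difference on both scales, with a median of -5.10 on the TMM scale and -7.16 on the epithelial scale. Their summed level was 771 to 1317 CPM in Kit+ K5- libraries and 16814 to 27786 CPM in Kit- K5- libraries. Leaving out any 1 of the 6 libraries gave 23 to 25 lower genes. Both populations were gated on E-cadherin, and the part of mesenchymal cells in the Kit- K5- libraries was not tested.

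Dcn had 44.2, 17.1 and 22.7 CPM in Kit+ K5- cells and 1395, 1718 and 1081 CPM in Kit- K5- cells. The fit gave a 49.9-fold ratio, a log2 difference of -5.64 ± 0.44 (adjusted p = 2.25e-06). The fibrillar collagens were lower to a like degree. Col1a1 had 119, 19.6 and 45.004 CPM in the Kit+ K5- replicates, compared with 3136, 2182 and 1453 CPM in the Kit- K5- replicates, and Col3a1 had 154, 37.8 and 90.6 CPM in Kit+ K5- libraries, against 5418, 5239.7 and 3338 CPM in Kit- K5- libraries, with differences of -5.20 ± 0.62 (adjusted p = 6.78e-05) and -5.63 ± 0.46 (adjusted p = 3.08e-06). Lum, a proteoglycan of collagen fibrils, differed by -5.81 ± 0.49 (adjusted p = 3.09e-06), and Fn1, the fibronectin gene, by -4.45 ± 0.31 (adjusted p = 1.32e-06). Leaving out Kit+ K5- replicate 1, Col1a1 and Lum differed by -6.13 and -6.42, and Pdgfra by -6.20. Pdgfra, the growth factor receptor of fibroblasts, had 20.5, 5.48 and 10.8 CPM in Kit+ K5- cells and 707, 637 and 434 CPM in Kit- K5- cells, a difference of -5.59 ± 0.50 (adjusted p = 5.2e-06).

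Transcription factors of mesenchyme were lower as well. Prrx1 had 20.4, 6.85 and 19.5 CPM in the Kit+ K5- replicates, compared with 581, 561 and 459 CPM in the Kit- K5- replicates, a difference of -5.10 ± 0.45 (adjusted p = 5.25e-06). Twist1 had 1.69, 0 and 0.437 CPM in Kit+ K5- libraries, against 24.7, 30.6 and 22.9 CPM in Kit- K5- libraries, a difference of -5.15 ± 1.03 (adjusted p = 0.00321) that was -6.99 without Kit+ K5- replicate 1. Vim, the intermediate filament gene that some epithelial and blood cells also use, gave the smallest difference of the list at -1.81 ± 0.32 (adjusted p = 0.00132), and Zeb2 one of -2.77 ± 0.68 (adjusted p = 0.0109). Zeb2 had 136, 9.69 and 20.4 CPM in Kit+ K5- cells and 492, 325 and 321 CPM in Kit- K5- cells. Kit+ K5- replicate 1, the library rich in mast cell transcripts, was thus the highest Kit+ K5- library for it. The same library was highest for Dcn, Col1a1, Col3a1, Pdgfra, Prrx1 and Twist1 as well, but not for Fn1. Without that library the Zeb2 difference was -4.67. Prrx2 and Dpt missed the threshold (adjusted p = 0.0899 and 0.0677), and Dpt passed it with the block (adjusted p = 0.017). Tcf21, Foxf1 and Foxf2, defining factors of some mesenchymes, were too low to test, and Tcf21 had no count in any Kit- K5- library.

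**Figure D3:**
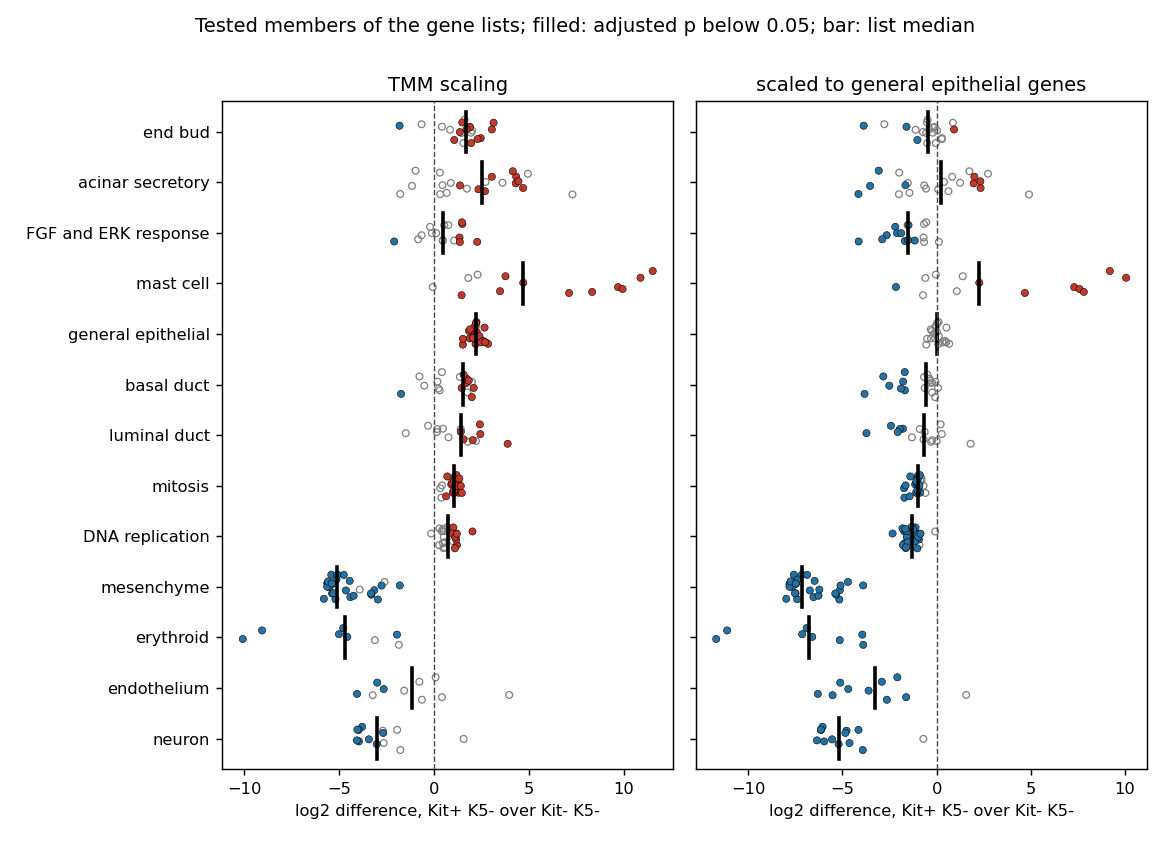
Log2 difference of Kit+ K5- over Kit- K5- for every tested member of 13 gene lists, with TMM scaling on the left and scaling to general epithelial genes on the right. Filled points had an adjusted p below 0.05 and bars are list medians, which for the end bud genes are 1.66 on the left and -0.43 on the right, and for the mesenchyme genes -5.10 and -7.16.

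Transcripts of several other cell types outside the epithelium leaned to the Kit- K5- side, although single genes and the summed skeletal muscle level did not. Of 8 tested erythroid genes 6 were lower in Kit+ K5- cells with edgeR, 4 with DESeq2 and 3 with limma-voom, with a summed level of 12.1 to 23.99 CPM in Kit+ K5- and 152 to 792 CPM in Kit- K5- libraries. The adult beta globin genes Hbb-bs and Hbb-bt, which are near-identical copies, differed by -4.58 ± 0.84 (adjusted p = 0.00176) and -4.79 ± 0.82 (adjusted p = 0.0011), and by -2.81 and -3.18 without Kit- K5- replicate 1. The embryonic globin gene Hba-x had 0 counts in Kit+ K5- libraries, against 6.89, 21.9 and 14.4 CPM in Kit- K5- libraries, and was at least 120-fold lower in Kit+ K5- cells with the floor of 3 counts over the group. Hbb-y had 1 count in all Kit+ K5- libraries and 75, 441 and 439 counts in Kit- K5- libraries. Unlike the adult globins it was lowest in Kit- K5- replicate 1. Of these 6 libraries only those of Kit- K5- could carry Hba-x and Hbb-y past the low-count filter. Both could hardly come out higher, so the erythroid count is in part fixed in advance.

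Of 13 tested neuron genes 8 were lower in Kit+ K5- cells, such as Gap43 at -3.97 ± 0.62 (adjusted p = 0.00062), Snap25 at -3.98 ± 0.92 (adjusted p = 0.0073) and Nefl at -4.05 ± 0.93 (adjusted p = 0.00739), which serve axon growth, synaptic release and the axon skeleton. That count was 5 without Kit+ K5- replicate 3 and 4 genes without Kit- K5- replicate 3, and Snap25 was at -4.79 without Kit+ K5- replicate 1. The 14 neuron genes summed to at most 21.5 CPM in a Kit+ K5- library, against at least 99.5 CPM in a Kit- K5- library. In K5+ libraries they summed to at most 20.7 CPM. Of the 6 libraries compared, mainly those of Kit- K5- could carry genes such as Snap25 past the low-count filter. Such genes could hardly come out higher, so the neuron count is in part fixed in advance. Among 10 endothelial genes 3 were lower, such as the receptor genes Tek at -2.999 ± 0.59 (adjusted p = 0.00284) and Eng at -2.66 ± 0.57 (adjusted p = 0.0047). Another 3 had a positive difference, none called. Erg was higher in each run, at 31.9, 1.16 and 1.75 CPM in Kit+ K5- and 0.853, 0.536 and 0.817 CPM in Kit- K5- libraries. Of 5 skeletal muscle genes 3 were lower, a count that was 1 without Kit- K5- replicate 1, Kit- K5- replicate 3 or Kit+ K5- replicate 2. The block gave 1 higher and 3 lower. The summed level of that list overlapped, at 48.9 to 110 CPM in Kit+ K5- and 66.6 to 123 CPM in Kit- K5- libraries. Among 16 leukocyte and macrophage genes 3 were lower and the block gave 6, as did voom. Their summed level was 125 to 674 CPM in Kit+ K5- and 286 to 1543 CPM in Kit- K5- libraries, with replicate 1 the highest of both. Without Kit- K5- replicate 1 the leukocyte count was 0, without Kit+ K5- replicate 2 it was 1 and without Kit+ K5- replicate 1 it was 6. Lyz2, the lysozyme gene of macrophages, had 9.93, 1.69 and 0.437 CPM in the Kit+ K5- replicates, compared with 206, 39.99 and 14.7 CPM in the Kit- K5- replicates, a difference of -4.40 ± 1.02 (adjusted p = 0.00762), which was -2.77 (adjusted p = 0.0702) without Kit- K5- replicate 1 and -6.27 when Kit+ K5- replicate 1 was left out. None of 10 tested Schwann and glia genes passed with edgeR, although 4 had an unadjusted p under 0.05 and DESeq2, voom and the block gave 3 lower each and voom 1 higher, with a median of -0.74. None of 3 tested melanocyte genes passed with edgeR, DESeq2 or voom, and none had an unadjusted p under 0.05.

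**Figure D4:**
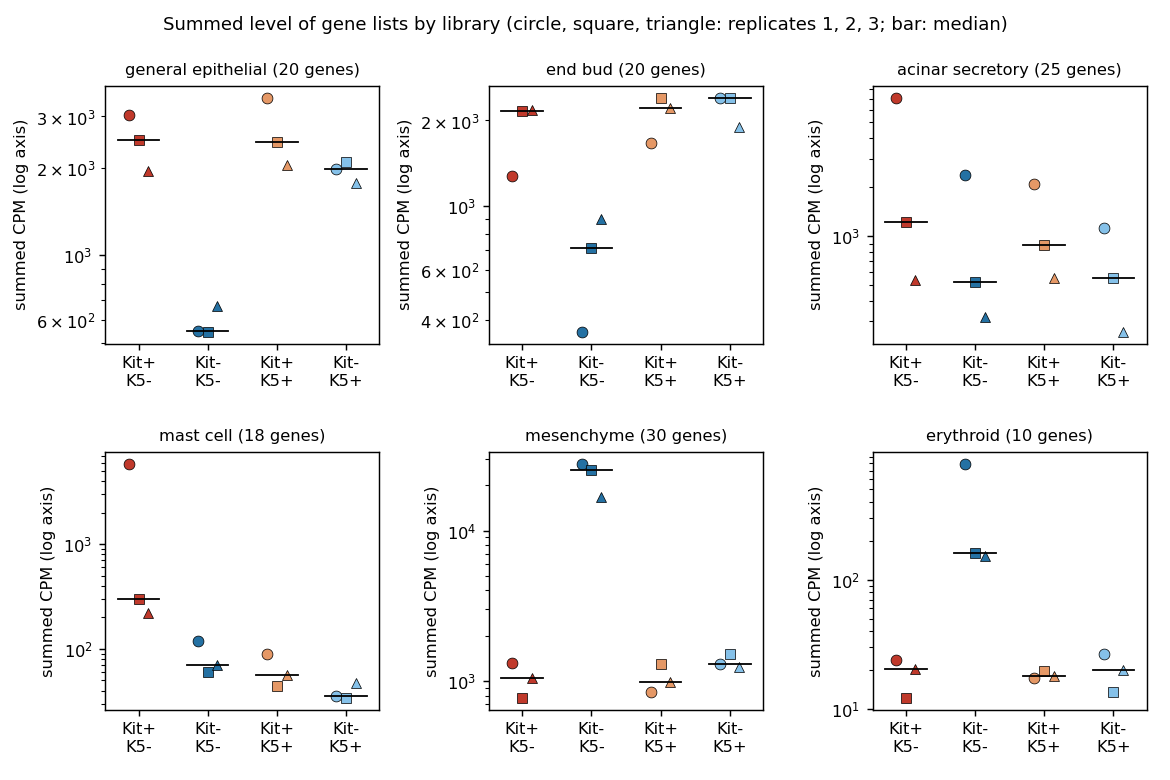
Summed level of 6 gene lists in each library of the 4 populations, in CPM on a log axis. Mesenchyme transcripts are high in the Kit- K5- libraries alone, at 16814 to 27786 CPM, mast cell transcripts reach 5869 CPM in Kit+ K5- replicate 1, and general epithelial transcripts are lowest in the Kit- K5- libraries.

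Duct genes leaned to the Kit+ K5- side on the TMM scale, and on the epithelial scale they were lower less often than all genes. Of 18 basal duct genes 7 were higher and 1 lower in Kit+ K5- cells, with a median log2 difference of 1.51, and the block gave 11 higher. Without Kit+ K5- replicate 2 or 3 the higher count was 4 and without Kit- K5- replicate 2 it was 3. Perp, a protein of desmosomes, had 164, 214 and 210.4 CPM in Kit+ K5- libraries, against 28.98, 58.5 and 61.1 CPM in Kit- K5- libraries, a difference of 1.99 ± 0.34 (adjusted p = 0.00112), and the integrin genes Itga6 and Itgb4, whose products hold basal cells to the basement membrane, differed by 1.56 ± 0.32 (adjusted p = 0.00354) and 1.45 ± 0.32 (adjusted p = 0.006). Of 15 tested luminal duct genes 6 were higher, with a median of 1.41. The factor Elf3 differed by 2.44 ± 0.34 (adjusted p = 0.000239), the keratin Krt23 by 2.41 ± 0.51 (adjusted p = 0.00469) and Prom1, an apical membrane protein, by 1.41 ± 0.28 (adjusted p = 0.00286). By edgeR none of the duct genes was called higher on the epithelial scale, and 7 basal and 5 luminal genes were lower there. Among all genes tested 0.223% were higher and 73.9% lower on that scale. The basal and luminal medians on it were -0.56 and -0.69, against -2.03 for all genes. There Perp, Itga6, Itgb4 and Prom1 turned to between -0.64 and -0.079, while Elf3 and Krt23 stood at 0.28 and 0.22.

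Genes of the cell cycle were higher in Kit+ K5- cells on the TMM scale and mostly lower on the epithelial scale, as most genes were there. Of 22 mitosis genes 19 were higher, with a median log2 difference of 1.07. On the epithelial scale none was higher and 17 were lower, near the share of 73.9% lower among all genes tested. Their median on that scale was -1.01, against -2.03 for all genes. Ccna2 had 215, 250.1 and 255 CPM in Kit+ K5- cells and 92.4, 112 and 98.4 CPM in Kit- K5- cells. It was higher by 2.38-fold (adjusted p = 0.000377) and turned to a log2 difference of -0.81 on the epithelial scale. Ube2c, an enzyme that marks cyclins for degradation, was higher by 1.46 ± 0.25 (adjusted p = 0.00127) on the TMM scale and stood at -0.60 on the epithelial scale. Birc5, which acts in chromosome segregation, was higher by 1.41 ± 0.25 (adjusted p = 0.00131) and stood at -0.69. Of 23 tested DNA replication genes 9 were higher with a median of 0.71, and 21 were lower on the epithelial scale with a median of -1.32. Rrm2, which makes deoxynucleotides, differed by 2.02 ± 0.30 (adjusted p = 0.000431) and stood at -0.078 on that scale. The median of these lists lies between that of all genes and that of general epithelial genes.

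Among the genes with the largest differences, chosen by size with at least 10 CPM in the higher population and no overlap, the 12 higher in Kit+ K5- cells held 5 mast cell proteases, Cma1, Mcpt4, Tpsab1, Tpsb2 and Cpa3, besides Kit, Dcpp1 and Csn1s1. The other 4 were Maob, Pou2f3, Slc22a3 and Gzmb. Gzmb, granzyme B, had 30.2, 12.2 and 11.4 CPM in the Kit+ K5- replicates, compared with 2.03, 0 and 0 CPM in the Kit- K5- replicates, a difference of 4.63 ± 1.21 (adjusted p = 0.0149) that was 4.04 without Kit+ K5- replicate 1 and 10.32 when Kit- K5- replicate 1 was left out. Maob, a mitochondrial enzyme that breaks down amines, had 89.3, 8.85 and 5.83 CPM in Kit+ K5- libraries, against 0.459, 1.15 and 0.715 CPM in Kit- K5- libraries, and Slc22a3, a transporter of organic cations, had 30.2, 5.16 and 3.495 CPM in Kit+ K5- cells and 0.262, 0.383 and 0.408 CPM in Kit- K5- cells. Both were highest in Kit+ K5- replicate 1, with differences of 5.47 ± 1.15 (adjusted p = 0.00429) and 5.17 ± 1.19 (adjusted p = 0.00741), which were 3.23 and 3.59 without that library, where Slc22a3 missed the threshold (adjusted p = 0.0635). Pou2f3, a transcription factor of tuft and taste cells, was unlike them. It had 47.1, 56.1 and 30.4 CPM in the Kit+ K5- replicates, compared with 0.787, 1.99 and 0.408 CPM in the Kit- K5- replicates, so replicate 1 was not the highest, and it was higher by 5.34 ± 0.67 (adjusted p = 0.000106), and by 6.12 without Kit- K5- replicate 2. The 12 lower genes were the globins Hba-x and Hbb-y and Rbp4, Kera, Vstm2b, Kcne4, Slitrk6, Epha3, Osr2, Pi15, Agtr2 and Klf14. Kera, a proteoglycan gene of connective tissue, had 2.01, 0.527 and 2.18 CPM in Kit+ K5- libraries, against 157, 203 and 112 CPM in Kit- K5- libraries, a difference of -6.66 ± 0.48 (adjusted p = 1.4e-06). Agtr2, a receptor for angiotensin, had 27.7, 5.16 and 11.5 CPM in Kit+ K5- cells and 1259.9, 1166 and 499.5 CPM in Kit- K5- cells, a difference of -6.04 ± 0.73 (adjusted p = 7.15e-05), and the receptor Epha3, Slitrk6 and the transcription factor Osr2 differed by -6.11 ± 0.48, -6.27 ± 0.40 and -6.09 ± 0.54. In the fit without Kit+ K5- replicate 1 Agtr2 stood at -6.89 and Epha3 at -6.82.

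On the epithelial scale the 38 higher genes were those called above the difference of general epithelial genes at an adjusted p under 0.05. Other genes, such as Elf5 and Chrm3, also stood above 0 there without being called. The 38 held 7 genes of the mast cell list, 4 of the acinar secretory list and 1 of the end bud list, namely Myb. Kit stood at 2.38 (adjusted p = 8.24e-05) and Pou2f3 at 3.19 (adjusted p = 0.000219). Maob and Slc22a3 stood at 3.06 and 2.85. Aldoc, a glycolytic enzyme gene, and Galnt3, which starts the sugar chains of mucins, were picked from the 38 after their values were seen. Aldoc had 237, 193 and 106 CPM in the Kit+ K5- replicates, compared with 9.12, 30.2 and 15.4 CPM in the Kit- K5- replicates, and Galnt3 had 45.3, 38.02 and 32.8 CPM in Kit+ K5- libraries, against 5.51, 3.14 and 5.62 CPM in Kit- K5- libraries. Their differences were 3.29 ± 0.42 (adjusted p = 0.000116) and 3.02 ± 0.28 (adjusted p = 8.74e-06) on the TMM scale, and 1.06 and 0.92 on the epithelial scale (adjusted p = 0.0339 and 0.0412).

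The Kit difference within K5+ cells, taken from the other 6 libraries, served as a comparison. There 112 of 17030 genes were called (0.658%), 57 higher (0.335%) and 55 lower (0.323%) on the Kit+ side. The difference of the Kit differences, K5- minus K5+, passed the threshold for 684 genes (4.02%), of which 206 were positive (1.21%) and 478 negative (2.81%). It was called for 370 genes without Kit- K5- replicate 1, for 396 without Kit- K5- replicate 2 and for 416 without Kit+ K5+ replicate 2. With the block it was called for 1418 genes, but for this test 1 of the 18 pairs of libraries of a run fell under the limit of 0.1 for pairing, so that count is given for comparison.

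Kit itself differed by 3.83 ± 0.31 in K5+ cells, and the 2 Kit differences were not shown to differ (adjusted p = 0.363). The median of the end bud genes was 1.66 in K5- and -0.16 in K5+ cells, and with TMM scaling 3 of them, Sox9, Etv4 and Six4, differed between the K5- and the K5+ comparison. General epithelial genes had medians of 2.22 in K5- and 0.74 in K5+ cells, and on the epithelial scale none of the 3 was called, with values of 0.040 ± 0.54 (adjusted p = 0.962) for Sox9, 0.53 ± 0.69 (adjusted p = 0.569) for Etv4 and 0.52 ± 0.64 (adjusted p = 0.535) for Six4. Etv4 had 24.3, 38.9 and 29.5 CPM in Kit+ K5+ libraries and 29.1, 30.2 and 30.03 CPM in Kit- K5+ libraries, a difference of 0.051 ± 0.35. Its 2 Kit differences differed by 1.90 ± 0.50 (adjusted p = 0.0489) on the TMM scale. Myb, by contrast, was also higher in Kit+ cells among K5+ cells, by 1.73 ± 0.26 (adjusted p = 0.0182), and so were Csn1s1 at 2.69 ± 0.53 (adjusted p = 0.0407) and Pou2f3 at 4.10 ± 0.61 (adjusted p = 0.0182). For these 3 the Kit differences were not shown to differ (adjusted p = 0.0631, 0.222 and 0.458).

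The secretory genes that differed between the 2 comparisons with TMM scaling were Dcpp1, Dcpp2, Dcpp3 and Chrm3. Dcpp1 had 135, 139.7 and 80.8 CPM in Kit+ K5+ libraries and 153, 79.1 and 28.1 CPM in Kit- K5+ libraries, which overlapped, and the Kit differences differed by 4.24 ± 0.96 (adjusted p = 0.0241). On the epithelial scale Dcpp1 came to 2.57 ± 0.82 (adjusted p = 0.0281) and Chrm3 to 2.37 ± 0.79 (adjusted p = 0.0329), while Dcpp2 and Dcpp3 missed the threshold (adjusted p = 0.0661 and 0.0635). In the mast cell list, Cpa3 differed by 3.48 ± 1.65 in K5+ cells with an adjusted p of 0.279, and Mcpt4 and Mcpt2 were the 2 members whose Kit differences differed, both with few or no counts outside Kit+ K5- libraries. The summed level of mast cell genes was 44.3 to 89.3 CPM in Kit+ K5+ and 33.9 to 47.4 CPM in Kit- K5+ libraries. Of 27 tested mesenchyme genes, 18 differed between the comparisons, all towards a lower Kit difference in K5- cells, with medians of -5.10 in K5- and -0.61 in K5+ cells. Dcn had 43.1, 62.2 and 26.6 CPM in Kit+ K5+ and 35.3, 59.3 and 36.2 CPM in Kit- K5+ libraries, all far below the Kit- K5- libraries. Among the 10 genes with the smallest adjusted p were Nr2f2, Slitrk6, Lpl, Itm2a, Kera, Chst2, Nid2, Clcn5 and Adamts12. Nr2f2, a nuclear receptor of mesenchyme and vessels, had 13.8, 17.7 and 15.7 CPM in Kit+ K5- cells and 283, 292 and 262 CPM in Kit- K5- cells, and its Kit differences differed by -3.79 ± 0.30 (adjusted p = 2.63e-05). All of these were lower on the Kit+ side among K5- cells.

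**Figure D5:**
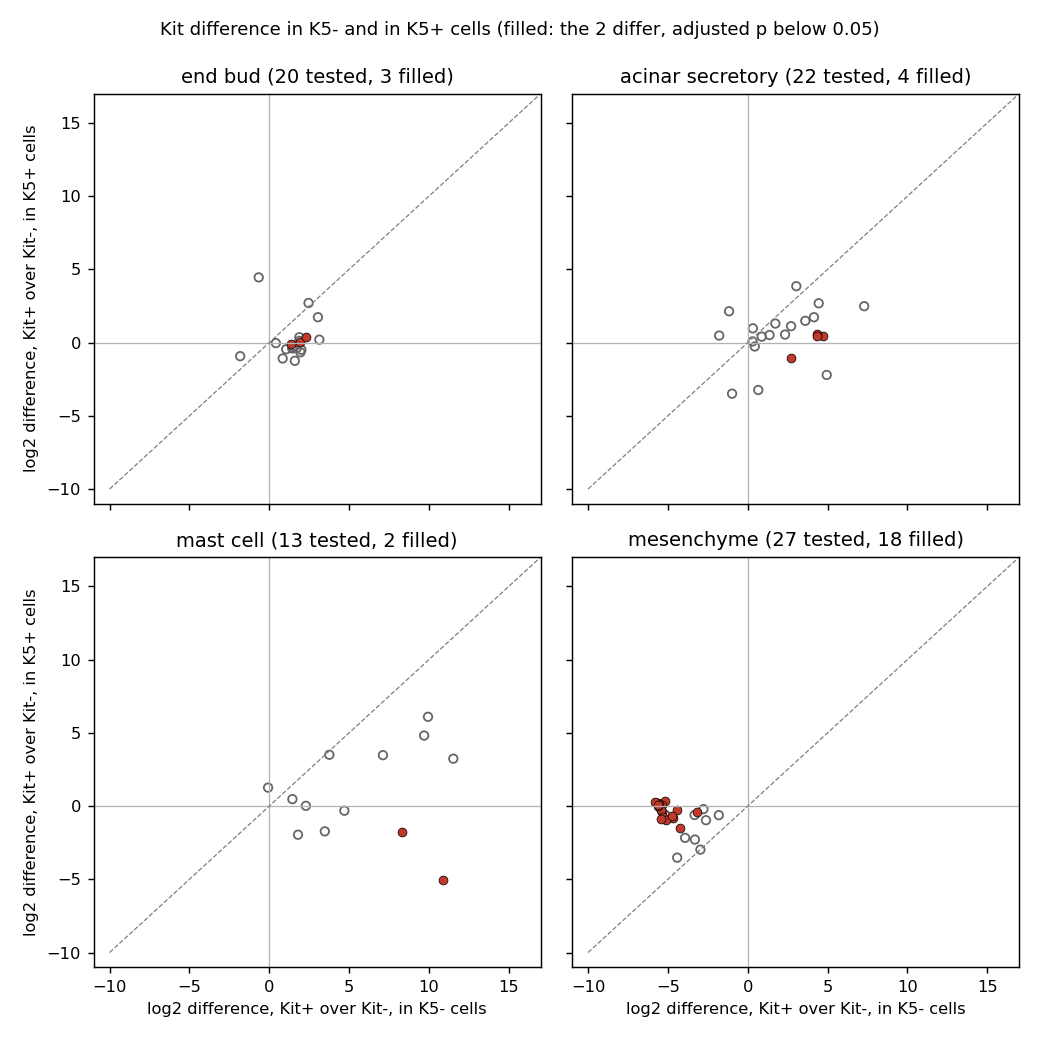
Log2 difference of Kit+ over Kit- libraries in K5- cells (horizontal) and in K5+ cells (vertical) for the tested members of 4 gene lists, with a dashed line of equality and filled points where the 2 differences differed at an adjusted p below 0.05 with TMM scaling. The mesenchyme genes lie near 0 in K5+ cells and far below 0 in K5- cells, with 18 of 27 filled, and 3 of 20 end bud genes are filled.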

How the data were processed

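RNA was measured in 12 libraries of sorted cells from submandibular glands of mouse embryos, of which 6 enter the comparison reported. Raw read counts per gene symbol were made by the authors with STAR 2.4.2a and featureCounts 1.4.6-p3 (Subread) on GRCm38.p3, with FastQC and Picard 1.129, per the submitters' processing notes, and were deposited without normalization. Neither the release of the annotation nor the use of strand in counting is stated in the labels, so a gene and an antisense or overlapping partner cannot be told apart. The deposited matrix and the single tables held the same counts in every cell, for 43280 symbols. The 12 libraries held 5589037 to 13724364 counts, and counting error at this depth limits genes of a few CPM.

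Groups came from the labels. edgeR 4.0.16 (R 4.3.3) was fitted to all 12 libraries with TMM scaling, its default filter on low counts and 1 coefficient per population. The quasi-likelihood test was adjusted by the Benjamini-Hochberg method, with a threshold of 0.05. Standard errors are the log2 difference divided by the root of the F statistic. CPM used TMM library sizes, and the scripts were tested on simulated data. The difference of Kit differences was the interaction in the same fit. Alternatives were DESeq2 1.42.0, limma-voom (limma 3.58.1), RLE and upper-quartile scaling, scaling to the median of 20 general epithelial genes, no filter, a filter of 10 CPM in 3 libraries, the 6 libraries alone, no mitochondrial genes, each library left out and the runs as a block. The scaling to epithelial genes with the block, and of the interaction, was added after seeing the data.

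Library numbers rise through the 4 populations within each replicate number, and the labels do not say that a run shares a sort. Deviations from the population means correlated at 0.408, 0.299 and 0.331 between Kit+ K5- and Kit- K5- libraries of a run, above the limit of 0.1, and at -0.301 to -0.0271 between libraries of different runs. Over all populations the 18 pairs of a run had a median of 0.218 and a lowest value of 0.0928.

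The members and lists were chosen with earlier results of these data known. Named genes were the sorting genes, the markers, the members of the end bud, secretory, FGF, mast cell and mesenchyme lists, up to 3 called genes of each other list by smallest adjusted p, up to 12 genes in each direction by fold, and 10 by the interaction. Some genes that meet this rule are not reported here. Positions are from GENCODE M21 (39469 symbols matched), and promoters from RefSeq on GRCm38.p6.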

Additional observations from a re-analysis of the deposited data

Results flagged for a closer look

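The genes named here had a Kit difference that was not the same in K5- and K5+ cells, by the interaction test at an adjusted p under 0.05. Each value is the log2 Kit difference in K5- cells minus that in K5+ cells, from 3 libraries per population. A positive value means that the Kit+ over Kit- difference was larger among K5- cells. Of the 24 positive values here 5 were also called on the epithelial scale, where the median of all genes was -1.34, and all 34 negative ones were.

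Among epithelial genes the values were 1.58 for Cdh1, 1.78 for Epcam, 1.90 for Esrp1 and 1.80 for St14. The duct genes Perp, Itga6, Itgb4, Elf3 and Krt23 gave 2.81, 2.32, 2.32, 1.83 and 3.21. End bud factors gave 1.90 for Etv4, 1.47 for Sox9 and 1.90 for Six4. Secretory genes gave 4.24 for Dcpp1, 3.75 for Dcpp2, 3.85 for Dcpp3 and 3.75 for Chrm3. Of the FGF response, Dusp6 stood at 1.23, Fgfbp1 at 1.71 and Spry4 at -2.57. Aldoc, Galnt3 and Rnf43 gave 2.29, 1.91 and 2.40.

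The mast cell proteases Mcpt4 and Mcpt2 gave 15.90 and 10.12. Both had 0 counts in all 3 Kit- K5- libraries, so these fitted values depend on the prior count and are no bound. Slc22a3 gave 7.34.

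Mesenchyme genes were all negative, with -5.65 for Dcn, -5.57 for Col1a1, -5.84 for Col3a1, -6.10 for Lum, -4.18 for Fn1, -5.65 for Pdgfra and -4.15 for Prrx1. The ligand Fgf10 gave -5.37. Nid1 and Nid2, which encode nidogens of the basement membrane, gave -4.35 and -5.53. Aldh1a2, which makes retinoic acid, and Crabp1, which binds it, gave -4.77 and -3.77, and Kdelr3 -2.02.

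Genes with the largest Kit differences in K5- cells gave -7.59 for Rbp4, -7.49 for Kera, -6.50 for Slitrk6, -6.48 for Kcne4, -6.18 for Agtr2 and -5.97 for Klf14. Pi15, Epha3, Vstm2b and Osr2 gave -5.71, -5.69, -4.80 and -4.64. The genes with the smallest adjusted p beyond these gave -6.23 for Chst2, -5.17 for Lpl, -5.03 for Itm2a, -4.90 for Adamts12, -3.79 for Nr2f2 and -3.30 for Clcn5.

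Blood and vessel genes gave -4.50 for Hbb-bs, -5.27 for Hbb-bt and -4.56 for Eng. Hbb-y gave -11.38, a fitted value that rests on 1 count in the Kit+ K5- libraries and depends on the prior count.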

How the results depend on the processing

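Of 107 genes of the text that were called, 96 kept their call with every other tool, scaling and filter that gave them a value, leaving aside the general epithelial scaling. A gene that a filter removed, or that had no adjusted p, was not counted as losing its call there. In every fit without 1 library 94 kept their call. Leaving out 1 library moved the difference of 39 of them by over 1.5-fold, in 32 cases without Kit+ K5- replicate 1, in 11 without Kit- K5- replicate 1, in 5 without Kit- K5- replicate 2 and in 1 without Kit- K5- replicate 3. The scaling to general epithelial genes moved the counts most, since it called 12629 genes, 38 higher and 12591 lower, and with the runs as a block 13435, 48 and 13387. List counts of higher genes there were 1 end bud gene, 4 acinar secretory genes and 0 general epithelial genes, and with the block 1 end bud, 6 mast cell and 0 general epithelial genes. Higher genes of the mast cell list numbered 6 with DESeq2, 4 with voom and 5 with at least 10 CPM in 3 libraries, and of the acinar secretory list 14 with no filter. The difference of Kit differences was called for 1411 genes with DESeq2 and 5292 with epithelial scaling. The cause was not tested.

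With the replicate block, 4977 genes were called, 2443 higher and 2534 lower (14.3% and 14.9% of those tested), of which 3615 had been called in the same direction without it. The block gave 15 higher acinar secretory genes and 1418 genes for the difference of Kit differences. Beyond the genes and lists named beside their values, it changed no call among the genes of the text.

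Leaving out 1 library gave 2123 to 3385 calls, 908 to 1600 higher and 1215 to 1785 lower, and 370 to 729 for the difference of Kit differences. The lowest counts of calls came without Kit+ K5- replicate 2, and for the difference of Kit differences without Kit- K5- replicate 1. Higher genes numbered 920 without Kit- K5- replicate 1, 1035 without Kit- K5- replicate 2 and 1104 genes without Kit- K5- replicate 3. By list these fits gave 6 to 11 end bud, 7 to 11 acinar secretory, 6 to 12 mast cell, 16 to 20 general epithelial and 23 to 25 lower mesenchyme genes.

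In all, 37 genes of the text changed sign with epithelial scaling, to log2 differences of -0.13 (Cdh1), -0.040 (Etv4), -0.10 (Etv5), -0.73 (Sox9), -0.50 (Sox10), -1.02 (Fgf1), -1.11 (Fgfr2), -0.51 (Hs3st3b1), -0.40 (Chrm1), -1.60 (Bmp7), -0.56 (Foxc1), -0.47 (Barx2), -0.66 (Slc12a2), -0.56 (Bhlha15) and -0.55 (Myc). The others came to -0.69 (Dusp6), -0.67 (Dusp4), -0.66 (Fgfbp1), -0.72 (Slc18a2), -0.041 (Srgn), -0.60 (Ms4a2), -0.079 (Perp), -0.49 (Itga6), -0.63 (Itgb4), -0.64 (Prom1), -0.81 (Ccna2), -0.60 (Ube2c), -0.69 (Birc5), -0.078 (Rrm2), -0.74 (Hyou1), -0.79 (Znrf3), -1.65 (Agr2), -1.53 (Csn3), -2.002 (Muc19), -0.21 (Nkx2-3), -1.99 (Pip) and -1.44 (Smr3a). Smgc, Ms4a2, Hpgds, Agr2, Csn3, Gfra3, Muc19 and Pip, which were not called, also changed sign elsewhere. Over the fits without 1 library Smgc ranged over -4.36 to 2.03, Ms4a2 over -0.71 to 2.35 and Hpgds over -0.36 to 0.36. Smgc and Hpgds were positive without Kit- K5- replicate 1, Hpgds also without Kit+ K5- replicate 2, and Ms4a2 was negative without Kit+ K5- replicate 1. Agr2 ranged over -0.033 to 1.95, Csn3 over -0.75 to 1.38, Gfra3 over -1.51 to 0.21, Muc19 over -1.41 to 2.77 and Pip over -1.79 to 6.97. With the block Csn3 came to -0.081. With upper-quartile scaling Hpgds came to 0.0065.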

Other observations

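Genes that answer to other signals of the gland also differed. Of 11 tested Wnt targets and feedback genes 3 were higher and 1 lower in Kit+ K5- cells, against background shares of 10.2% and 11.1%, with a median log2 difference of -0.081. Rnf43 and Znrf3, which encode membrane ligases that remove Wnt receptors, were among the higher genes. Rnf43 had 39.4, 51.2 and 53.01 CPM in the Kit+ K5- replicates, compared with 7.48, 7.74 and 9.19 CPM in the Kit- K5- replicates, a difference of 2.56 ± 0.21 (adjusted p = 3.08e-06), with every Kit+ K5- library above every Kit- K5- library. Znrf3 had 94.9, 108 and 139.7 CPM in Kit+ K5- libraries, against 35.9, 43.7 and 66.6 CPM in Kit- K5- libraries, a difference of 1.23 ± 0.26 (adjusted p = 0.00466) that turned to -0.79 on the epithelial scale, where Rnf43 stood at 0.52. Of 18 tested growth factor receptors and ligands 2 were higher and 7 lower, with a median of -0.63, and the higher count was 1 without Kit+ K5- replicate 2 or any 1 of the Kit- K5- libraries. Erbb3, the receptor of neuregulins, was one of the higher genes. It had 183, 200.3 and 173 CPM in Kit+ K5- cells and 36.4, 37.4 and 55.8 CPM in Kit- K5- cells, a difference of 2.10 ± 0.24 (adjusted p = 4.63e-05), and 0.018 on the epithelial scale.

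Of 13 tested genes of retinoic acid signalling 6 were lower and none higher with edgeR, with 7 at an unadjusted p under 0.05, DESeq2 and voom also gave none higher, and the block gave 1 higher and 7 lower. The lower count was 3 without Kit+ K5- replicate 2. Aldh1a2 had 4.97, 0.737 and 2.48 CPM in the Kit+ K5- replicates, compared with 181, 151 and 97.6 CPM in the Kit- K5- replicates, a difference of -5.70 ± 0.73 (adjusted p = 0.000125) that was -6.53 without Kit+ K5- replicate 1, and Crabp1 one of -2.88 ± 0.54 (adjusted p = 0.002). Of 18 basement membrane genes 1 was higher and 6 were lower, the block gave 5 higher and 7 lower, and no filter on low counts gave 6 higher. The nidogen genes led them, with 62.8, 20.4 and 35.1 CPM in Kit+ K5- libraries, against 1565, 1363 and 894 CPM in Kit- K5- libraries for Nid1, and 17.4, 7.58 and 21.3 CPM in Kit+ K5- cells and 641, 675 and 412 CPM in Kit- K5- cells for Nid2, and differences of -5.01 ± 0.45 (adjusted p = 5.25e-06) and -5.23 ± 0.37 (adjusted p = 1.32e-06). Frem1, of the same membrane, differed by -3.77 ± 0.70 (adjusted p = 0.00189), and by -4.54 without Kit+ K5- replicate 1.

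Of 18 genes that cell dissociation is known to induce, 7 were lower and none higher in Kit+ K5- cells with edgeR, DESeq2 and voom, the block gave 1 higher and 12 lower, and no filter on low counts gave 12 lower. That count of 7 was 2 without Kit+ K5- replicate 2, 2 without Kit- K5- replicate 3 and 3 genes without Kit+ K5- replicate 3. Socs3, a feedback inhibitor of cytokine signals, had 33.6, 14.6 and 19.7 CPM in the Kit+ K5- replicates, compared with 186, 93.4 and 117 CPM in the Kit- K5- replicates, a difference of -2.54 ± 0.46 (adjusted p = 0.00173), and the transcription factor Klf4 differed by -1.74 ± 0.41 (adjusted p = 0.00883). Among 10 myoepithelial and contractile genes 1 was lower and none higher with edgeR, with 3 at an unadjusted p under 0.05. The part of the dissociation genes in the other differences was not tested.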
